A study of Mus musculus with 8 samples.

Results

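SGC-CBP30, a small-molecule inhibitor of the bromodomains of the histone acetyltransferases CBP and p300, was compared with its vehicle DMSO in activated mouse CD8+ T cells by RNA-seq. The comparison used the libraries labelled SGC-CBP30 and DMSO, 2 each, so 4 of the 8 libraries of the series, and 16750 of the 45777 genes in the count table passed the filter on low counts and were tested. CD8+ T cells had been purified from lymph node and spleen of C57BL/6 mice, stimulated by anti-CD3 and anti-CD28 antibodies, and cultured for 48 hours in the presence of SGC-CBP30 or of DMSO. The other 4 libraries came from the same kind of cells kept with EnPGC-1 or with Ctrl PIP, 2 libraries each. PIPs are synthetic pyrrole-imidazole polyamides that bind DNA. The series' design text counts SGC-CBP30 among the PIPs, although it is a bromodomain inhibitor of another chemical kind. The labels give no dose for any compound, and whether replicates are different animals or cultures is not stated, so the p-values below describe the variation among these libraries alone, and that variation may be technical.

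CBP (gene Crebbp) and p300 (gene Ep300) are closely related coactivators that acetylate histones and other proteins, largely at enhancers, and their bromodomain binds acetylated lysine. They are recruited by many of the transcription factors that act downstream of the T cell receptor. In CD8+ T cells that signal switches on growth and division and a programme of cytokines, chemokines and the granule proteins with which these cells kill their targets.

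Total counts were 41314599 and 55167278 in the DMSO libraries and 53654673 and 52795446 in the SGC-CBP30 libraries, and 38890043 to 55491261 over all 8 libraries. The CD8 T cell gene Cd8a stood at 904 to 1241 CPM (read counts scaled to library size by TMM) in every library, while Cd4 was at 4.54 to 14.1 CPM. The replicates of the groups compared were not equally alike. The DMSO libraries were at -68.92 and 89.63 on the first principal component of log2 CPM, which held 49.63% of the variance, and the SGC-CBP30 libraries were at -22.66 and 3.717. A difference of at least 2-fold separated the DMSO libraries for 6145 genes (36.7% of those tested) and the SGC-CBP30 libraries for 1286 genes (7.68%). Library deviations followed transcript length, with a Spearman rho across genes of 0.565 in DMSO library 1, -0.608 in DMSO library 2, and 0.536 and 0.478 in the SGC-CBP30 libraries. The 18S ribosomal RNA gene Rn18s-rs5 had 1119 and 10073 CPM in DMSO against 1866 and 2166 CPM in SGC-CBP30. The part of these differences in the results below was not tested beyond the values given without each DMSO library and with offsets for transcript length and GC content.

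**Figure D1:**
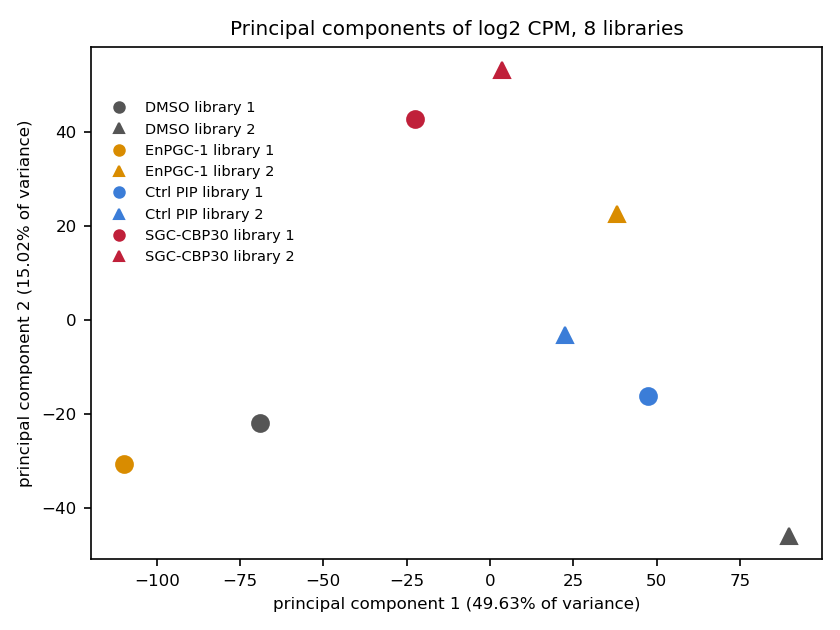
Principal components of log2 CPM over the genes tested, with 1 point per library, the colour giving the group and the shape the replicate number. The DMSO libraries stand at -68.92 and 89.63 on the first component, with both SGC-CBP30 libraries between them, and the SGC-CBP30 libraries are the highest of the 8 on the second component at 42.69 and 53.03.

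The genes that were lower under SGC-CBP30 with the smallest p included several of the effector programme: the granule protease Gzmb, the surface proteins Ly6c1 and Ly6c2, and Myc, the transcription factor that drives growth of activated T cells. In bulk RNA, fewer cells of a type and less RNA per cell cannot be told apart. No gene passed edgeR's quasi-likelihood test at a Benjamini-Hochberg adjusted p of 0.05 (0 of 16750, percent called 0), and the adjusted p was 0.943 or more for every gene named here. At an unadjusted p under 0.05, edgeR had 472 genes lower (2.82%) and 263 higher (1.57%), where 838 in all would be expected without any difference. DESeq2's Wald test called 58 genes lower (0.346%) and 11 higher (0.0657%) at an adjusted p under 0.05. Of these 69 genes, only 50 reached 5 CPM in the group with more, and the groups of 68 did not overlap. DESeq2 was an alternative to the main test, and its calls are given as descriptions. Log2 fold changes lay above 0 for 47.2% of all genes and below 0 for 52.7%, with a median of -0.03, and the median half-width of its 95% interval was 1.00.

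A count that uses no model of the spread was also made. Both SGC-CBP30 libraries lay below both DMSO libraries for 2421 genes (14.5%) and above them for 2712 genes (16.2%). Neither share was above what a random order of these 4 libraries would give. Of the 10431 genes that reached 5 CPM in the group with more, 177 were lower and 41 higher by at least 2-fold with no overlap of the groups. Of these, 69 and 13 also kept a 2-fold difference when either DMSO library was left out. Both SGC-CBP30 libraries lay outside the range of all 6 other libraries for 9.70% of genes (944 above, 5.64%, and 681 below, 4.07%), against 2.75% for DMSO, 6.27% for EnPGC-1 and 4.33% for Ctrl PIP. A random order of the 8 libraries would give a share near the 4.07% below and smaller than the 5.64% above. Such a share also depends on how close the 2 libraries of a group lie. At least 2-fold apart were 36.7% of genes between the DMSO libraries and 7.68% between the SGC-CBP30 libraries. Of the 69 genes that DESeq2 called, 46 of the lower ones and 7 of the higher ones lay outside the range of the other 6 libraries.

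**Figure D2:**
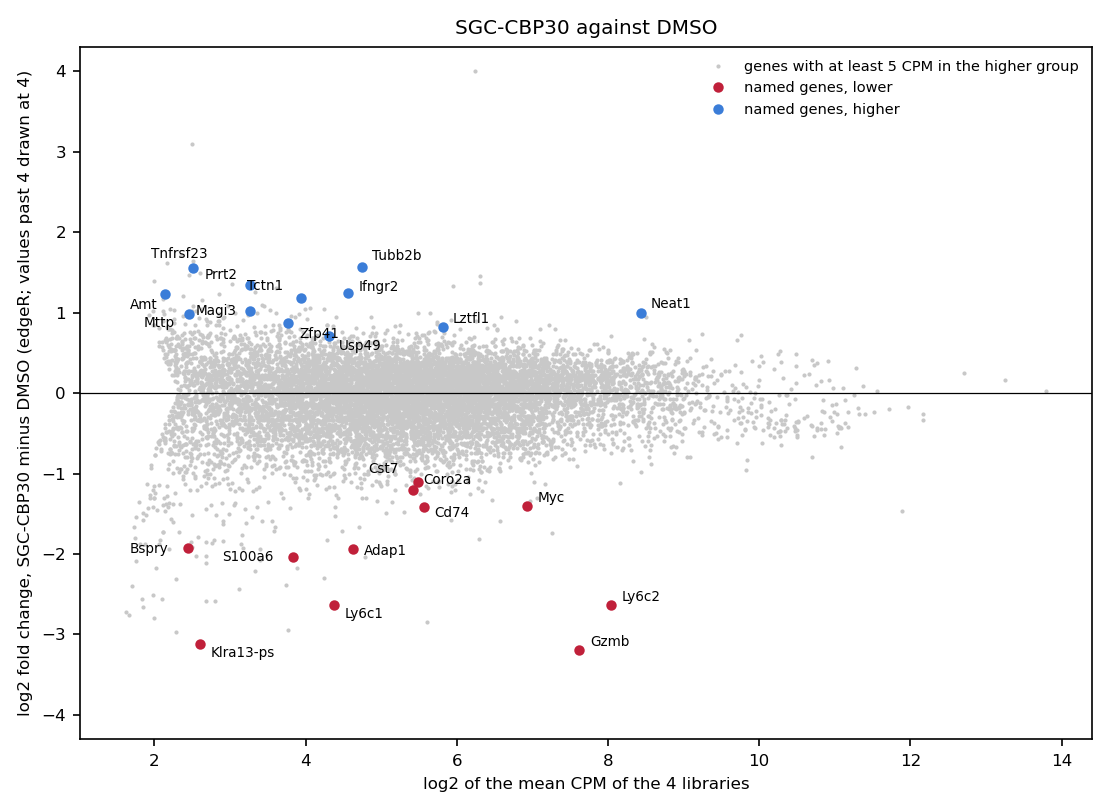
Log2 fold change of SGC-CBP30 over DMSO (edgeR, vertical axis) against the log2 mean CPM of the 4 libraries (horizontal axis), with 1 grey point per gene that reached 5 CPM in the higher group and the named genes in colour (values past 4 are drawn at 4). Gzmb (-3.19) and Ly6c2 (-2.63) combine a high level with a low fold change, while the named higher genes lie between 0.71 and 1.57.

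Gzmb, the serine protease granzyme B that killer cells deliver into their targets, had 220 and 490 CPM in DMSO and 36.4 and 41.6 CPM in SGC-CBP30. The lower DMSO library was still far above both SGC-CBP30 libraries, and the fold change was 9.11 (log2 -3.19 ± 0.43 SE, 95% interval -4.21 to -2.16). Without DMSO library 1 the log2 fold change was -3.65, and without DMSO library 2 it was -2.50.

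Ly6c2, a GPI-anchored surface protein of memory and effector CD8+ T cells, had 319 and 588 CPM in DMSO and 87.8 and 59.3 CPM in SGC-CBP30. Its neighbour Ly6c1 had 24.4 and 47.3 CPM against 6.98 and 4.52 CPM. Both were below all other libraries in SGC-CBP30, with log2 fold changes of -2.63 and -2.64, although these near-identical genes may share reads. The pseudogene Klra13-ps of the Ly49 receptor cluster had 8.11 and 13.7 CPM against 0.939 and 1.57 CPM and is uncertain for the same reason.

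The 12 lower genes with the smallest p also held Coro2a, Adap1, Cd74, S100a6, Bspry, Cst7 and Myc. Coro2a, a coronin-family protein that is part of nuclear corepressor complexes, had 62.2 and 57.2 CPM in DMSO and 24.4 and 27.4 CPM in SGC-CBP30. Adap1, an Arf GTPase-activating protein, had 30.1 and 48.4 against 9.24 and 11.2 CPM. Cst7, the cystatin F that restrains the cathepsins which activate granzymes, had 58.1 and 64.5 against 30.7 and 26.7 CPM. Of these 12 genes, 11 had SGC-CBP30 values below all 6 other libraries. The exception was Bspry, at 1.86 and 2.65 CPM with SGC-CBP30 and 2.50 and 2.36 CPM with EnPGC-1.

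**Figure D3:**
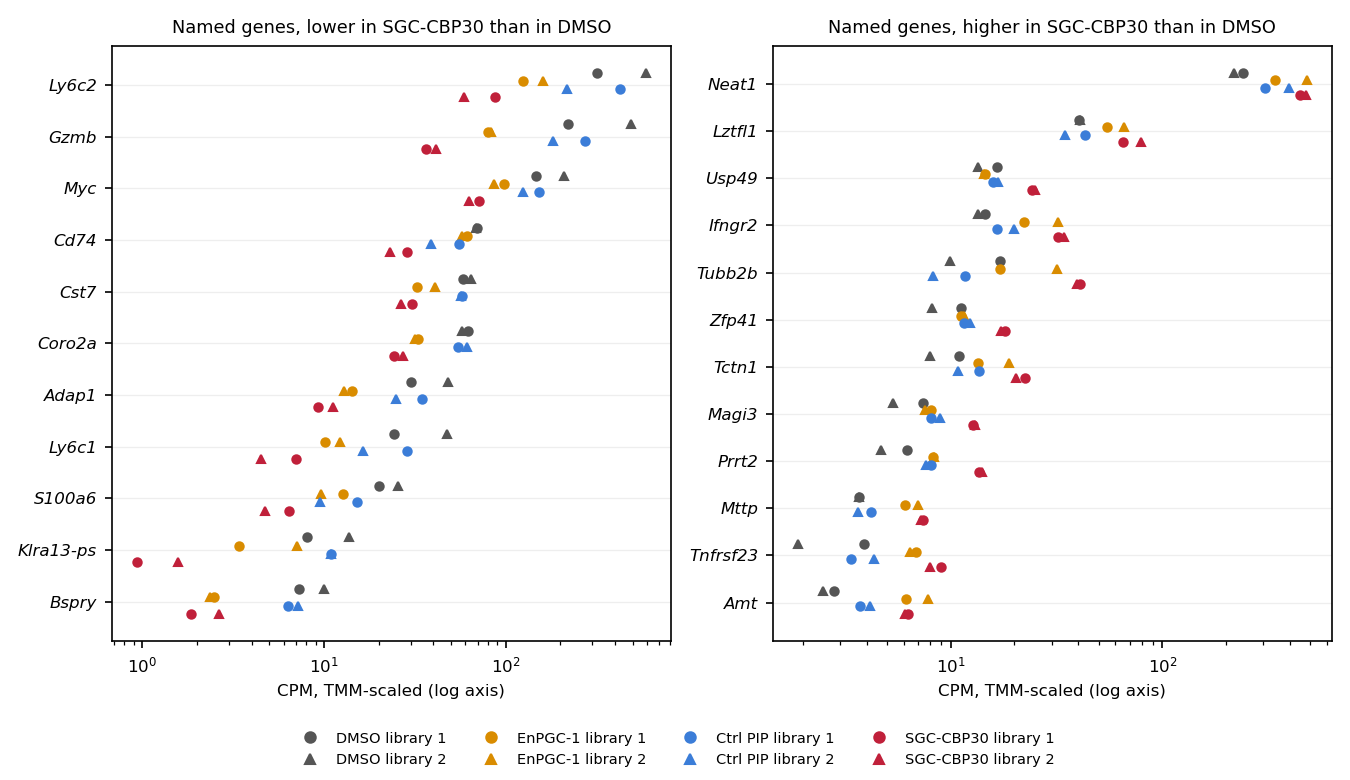
CPM of the named genes in all 8 libraries on a log axis, with 1 point per library, the colour giving the group and the shape the replicate number. On the left the SGC-CBP30 points lie left of the DMSO points for every gene, for example 36.4 and 41.6 against 220 and 490 CPM for Gzmb, and on the right they lie to the right, for example 32.2 and 34.1 against 14.5 and 13.5 CPM for Ifngr2.

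The RefSeq promoters of 4 lower effector genes, Gzmb, Cst7, Xcl1 and Nkg7, are shown because the genes were lower together, and they were picked among those that hold the word TGTGGT. Each run is the 250 bases before the RefSeq start on GRCm38.p6, 5′ to 3′ on the gene's strand, with TGTGGT (the core of the sites that RUNX factors bind) and TGANTCA (the site of AP-1 dimers) in capitals, where found on either strand; ACCACA is TGTGGT read on the other strand.
Gzmb (chr14:56262335-56262584, minus strand): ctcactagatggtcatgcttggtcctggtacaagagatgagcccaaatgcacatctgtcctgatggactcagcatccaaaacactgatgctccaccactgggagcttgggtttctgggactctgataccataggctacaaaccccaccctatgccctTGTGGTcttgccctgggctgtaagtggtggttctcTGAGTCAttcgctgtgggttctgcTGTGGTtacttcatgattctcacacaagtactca
Cst7 (chr2:150570165-150570414, plus strand): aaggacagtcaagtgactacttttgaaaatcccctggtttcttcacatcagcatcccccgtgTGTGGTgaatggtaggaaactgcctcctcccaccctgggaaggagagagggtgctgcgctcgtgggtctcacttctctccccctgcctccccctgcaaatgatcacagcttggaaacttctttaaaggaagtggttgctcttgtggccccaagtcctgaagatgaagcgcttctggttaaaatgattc
Xcl1 (chr1:164935523-164935772, minus strand): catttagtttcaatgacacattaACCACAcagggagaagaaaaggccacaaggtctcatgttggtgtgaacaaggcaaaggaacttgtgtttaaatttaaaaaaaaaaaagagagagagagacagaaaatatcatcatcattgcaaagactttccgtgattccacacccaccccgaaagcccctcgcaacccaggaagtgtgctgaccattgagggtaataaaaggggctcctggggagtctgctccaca
Nkg7 (chr7:43436888-43437137, plus strand): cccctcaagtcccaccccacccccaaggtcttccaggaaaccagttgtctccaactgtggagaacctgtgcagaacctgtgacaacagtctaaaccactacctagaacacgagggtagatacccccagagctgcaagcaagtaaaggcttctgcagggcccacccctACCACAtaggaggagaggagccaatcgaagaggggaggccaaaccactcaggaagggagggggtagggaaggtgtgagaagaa
In Gzmb the words began 93 and 34 bases (TGTGGT) and 58 bases (TGANTCA) before the RefSeq start, which, unlike those of the other 3 genes shown, was not matched in the GENCODE transcripts. Of the 12 lower genes, 8 had a promoter in the table, and TGTGGT was found in 5 of them (Bspry, Cst7, Gzmb, Ly6c2 and S100a6). It was found in 0 of the 8 promoters available for the 12 higher genes and in 13.8% of the promoters of the 11806 tested genes that had one. TGANTCA was found in 1 of the 8 lower promoters (Gzmb) and in 5.53% over all genes, and the cyclic AMP response element TGACGTCA in 0 of the 8 and in 2.87%. The words were chosen with the values of these genes known, and a match shows only that the letters are there.

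Chemokines and their receptors had a median log2 fold change of -0.97 over the 22 members tested, and both SGC-CBP30 libraries lay below both DMSO libraries for 14 of them and above for 2 (all genes: 14.5% below and 16.2% above). The same shares of all genes apply to the counts without overlap of every list below. edgeR had 9 lower and 1 higher at an unadjusted p under 0.05, and DESeq2 called 4 lower. The ligands given here were low. Xcl1, the lymphotactin that attracts cross-presenting dendritic cells, had 15.0 and 33.7 CPM in DMSO and 5.06 and 5.69 CPM in SGC-CBP30 (log2 -2.18 ± 0.42 SE). The chemokine Ccl4 had 6.99 and 11.5 against 3.11 and 2.24 CPM. Its relative Ccl3 had 7.68 and 5.75 against 1.82 and 0.522 CPM. In all 3 the groups did not overlap. Among the receptors, Ccr2 had 19.9 and 13.3 against 3.17 and 3.99 CPM, and Cxcr3, which guides effector T cells to inflamed tissue, had 164 and 109 against 72.4 and 71.8 CPM. Ccr7 and Ccr9, receptors for homing to lymph node and gut, were not low, with 427 and 699 CPM in DMSO and 727 and 779 CPM in SGC-CBP30 for Ccr7, and 64.6 and 20.1 against 124 and 108 CPM for Ccr9. The median of the list was -0.73 without DMSO library 1, -1.13 without DMSO library 2 and -0.92 with the length and GC offsets. Its summed level went the other way, at 1334 and 1219 CPM in DMSO and 1430 and 1399 CPM in SGC-CBP30.

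Effector molecules had a median of -0.56 over 19 members tested, of which 17 had a fold change below 0. The groups did not overlap for 10, all with SGC-CBP30 lower, edgeR had 8 lower and 0 higher at an unadjusted p under 0.05, and DESeq2 called 5 lower. Besides Gzmb, these were led by Ifng, the cytokine interferon gamma, with 12.6 and 8.02 CPM in DMSO and 2.76 and 2.28 CPM in SGC-CBP30 (4.09-fold lower, log2 -2.03 ± 0.41 SE), by Nkg7, a granule membrane protein needed for degranulation, with 160 and 197 against 73.8 and 67.8 CPM, and by the granzyme Gzmc, with 2.09 and 2.55 against 0.663 and 0.261 CPM. Tnf, the cytokine tumour necrosis factor, had 8.96 and 11.8 against 2.65 and 4.65 CPM. Another granzyme, Gzmm, had 4.02 and 5.10 against 1.34 and 1.68 CPM. Some other members had smaller differences. Prf1, the pore-forming perforin, had 27.8 and 22.6 CPM in DMSO and 23.3 and 15.1 CPM in SGC-CBP30, with a log2 fold change of -0.40 and a 95% interval of -1.13 to 0.34, and Gzma had the highest value of the list at 0.12. The list's median was -0.69 and -0.71 without DMSO library 1 or 2.

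Other cytokines had a median of -0.89 over 12 members tested (-0.70 with Il13, which had 0 counts in a group, set to the floor of 3 counts per library), with 6 members lower and 1 higher without overlap. Osm, oncostatin M, had 9.23 and 7.78 against 4.82 and 3.53 CPM, and Tnfsf11, the RANK ligand, had 6.99 and 8.24 against 3.15 and 4.50 CPM. Il2 was near the limit of detection in all groups, at 0.309 and 0.257 CPM in DMSO and 0.147 and 0.261 CPM in SGC-CBP30.

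Genes of activation and costimulation had a median of -0.73 over 28 members, 17 of them lower and 2 higher in SGC-CBP30 without overlap, and 11 lower at an unadjusted p under 0.05 in edgeR. Myc and Batf3, described below, were members of this list too. Il2ra, the high-affinity subunit of the interleukin 2 receptor, had 132 and 84.3 CPM in DMSO and 47.9 and 47.8 CPM in SGC-CBP30 (log2 -1.18 ± 0.30 SE). Its SGC-CBP30 values lay below all other libraries, but EnPGC-1 came close at 64.8 and 49.8 CPM. The costimulatory receptors Tnfrsf9 (4-1BB) and Tnfrsf4 (OX40) were lower too, at 53.7 and 191 against 34.3 and 35.4 CPM and at 17.7 and 58.6 against 16.5 and 14.3 CPM, but the values of DMSO library 1 were close to those of SGC-CBP30. Egr1, an early growth response factor, had 61.6 and 60.0 against 27.8 and 27.3 CPM. The 22 immediate early genes tested, Egr1 among them, had a median of -0.80, with 10 lower and 0 higher without overlap. Egr2 had 11.0 and 13.0 against 5.67 and 3.49 CPM, and Egr3 had 23 and 30.6 against 13.1 and 13.1 CPM.

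Factors of the BATF, AP-1 and IRF families differed from each other. Batf3, which supports memory formation of CD8+ T cells, had 2.69 and 2.84 CPM in DMSO and 0.258 and 0.354 CPM in SGC-CBP30 (8.97-fold lower, log2 -3.17 ± 0.55 SE), and its paralogue Batf had 33.6 and 51.4 against 32.9 and 31.6 CPM. The groups lay far apart for Batf3 and close together for Batf. Irf5 had 9.80 and 11.9 against 5.25 and 4.68 CPM, Irf4 had 52.8 and 88.4 against 40.1 and 39.6 CPM, and Fos had 9.15 and 3.99 against 1.82 and 1.87 CPM. The family's median over 19 members was -0.14, with 7 lower and 1 higher without overlap. Zbtb32, a BTB zinc-finger repressor that limits T cell responses and was chosen after its values were seen, had 32.0 and 56.7 against 9.55 and 12 CPM.

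**Figure D4:**
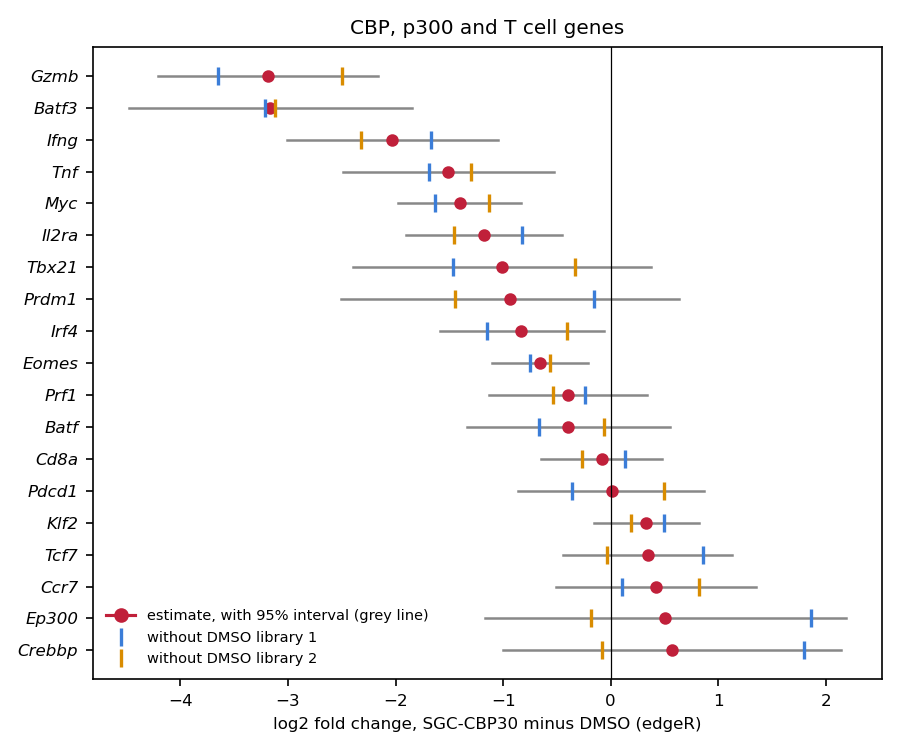
Log2 fold change of SGC-CBP30 over DMSO (edgeR) for Crebbp, Ep300 and T cell genes, with the 95% interval as a grey line and the values without DMSO library 1 or 2 as blue and orange ticks. Gzmb, Batf3, Ifng, Tnf, Myc and Il2ra stay below 0 under either tick, while Crebbp and Ep300 move from 1.80 and 1.86 to -0.08 and -0.18.

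Among the factors that set effector and memory fate, Tbx21 (T-bet) had 38.6 and 84.9 CPM in DMSO and 29.1 and 32.2 CPM in SGC-CBP30, and Eomes (eomesodermin) had 63.7 and 73.1 against 41.7 and 45.1 CPM. Both sets of SGC-CBP30 values lay below both DMSO values. Prdm1 (BLIMP-1) overlapped, at 6.56 and 2.67 against 2.72 and 2.09 CPM. The effector fate factors as a list had a median of -0.04 over 18 members, which was 0.48 without DMSO library 1 and -0.49 without DMSO library 2. The naive, memory and homing genes had a median of 0.29 over 21 members, with 4 higher and 2 lower without overlap (all genes: 16.2% higher and 14.5% lower). Their median was 0.86 without DMSO library 1 but -0.12 without DMSO library 2. Klf2, a factor that keeps T cells quiescent and in circulation, had 241 and 194 CPM in DMSO and 275 and 273 CPM in SGC-CBP30. Tcf7, the stem-like factor TCF1, had 1929 and 1041 against 1943 and 1834 CPM, and its log2 fold change of 0.35 was -0.03 without DMSO library 2.

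Inhibitory receptors and exhaustion factors had a median of -0.37 over 20 members, with 7 lower and 1 higher without overlap. Cd160 had 30.7 and 49.2 CPM in DMSO and 12.2 and 12.9 CPM in SGC-CBP30, Pdcd1lg2 (PD-L2) had 3.85 and 4.11 against 1.49 and 1.62 CPM, and Tigit had 37.0 and 54.3 against 20.8 and 24.0 CPM. Pdcd1, which encodes PD-1, was not low: it had 15.0 and 27.1 against 20.5 and 21.8 CPM, with a log2 fold change of 0.01 and a 95% interval of -0.86 to 0.87.

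Myc had 147 and 208 CPM in DMSO and 71.1 and 62.9 CPM in SGC-CBP30 (2.64-fold lower, log2 -1.40 ± 0.24 SE, 95% interval -1.98 to -0.83), the lowest of the 8 libraries. The 34 genes of the list of ribosome biogenesis and MYC targets, Myc itself among them, all had fold changes below 0. These ran from -1.40, the value of Myc, to -0.16, with a median of -0.71. The groups did not overlap for 28 of them, all lower, and 17 were lower at an unadjusted p under 0.05. Nop56, a core protein of the box C/D small nucleolar particles, had 159 and 345 against 127 and 142 CPM, and the nucleolar GTPase Gnl3 had 55.3 and 114 against 36.1 and 40.3 CPM. The median was -0.96 without DMSO library 1 and -0.38 without DMSO library 2. The summed level of the list was 6253 and 13121 CPM in DMSO and 6115 and 7272 CPM in SGC-CBP30, so the sums overlapped although most single members did not.

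For several housekeeping pathways the sign of the difference turned on which DMSO library was used. All 36 subunits of complex I, the first enzyme of the respiratory chain, had fold changes below 0 with a median of -0.59, but the median was -1.10 without DMSO library 1 and 0.22 without DMSO library 2, and 2 members did not overlap. For the mitochondrial ribosomal proteins all 58 values lay below 0, and their median of -0.57 was 0.05 without DMSO library 2. For the cytosolic ribosomal proteins all 57 values lay below 0, and their median of -0.41 was 0.24 without DMSO library 2, and the groups overlapped for every one of them. With the length and GC offsets these medians were -0.14, -0.26 and -0.02. Proliferation genes had a median of -0.04 over 40 members (-0.48 and 0.64 without DMSO library 1 or 2), and 4 were higher and 0 lower without overlap, a smaller share than the 16.2% and 14.5% of all genes. The members higher without overlap included the division marker Mki67 at 680 and 628 against 924 and 1228 CPM and the topoisomerase Top2a at 576 and 725 against 845 and 1207 CPM.

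Cholesterol synthesis genes were below 0 for all 25 members with a median of -0.56, and 11 did not overlap, all lower. Sqle, the squalene epoxidase of the pathway, had 41.3 and 77.9 CPM in DMSO and 23.3 and 30.9 CPM in SGC-CBP30 (log2 -1.14 ± 0.33 SE). The median of the list was 0.01 without DMSO library 2, where Sqle had a value of -0.61. Of the targets of ATF4, the factor of the amino acid response, Asns (asparagine synthetase) had 13.1 and 14.8 against 4.05 and 3.54 CPM and Cebpb had 2.57 and 4.96 against 1.23 and 1.04 CPM. That list had a median of -0.43 over 28 members and 0.05 without DMSO library 2. Ppargc1a, the coactivator of mitochondrial biogenesis, was hardly detected, with 14 and 0 counts in DMSO and 0 and 3 counts in SGC-CBP30.

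**Figure D5:**
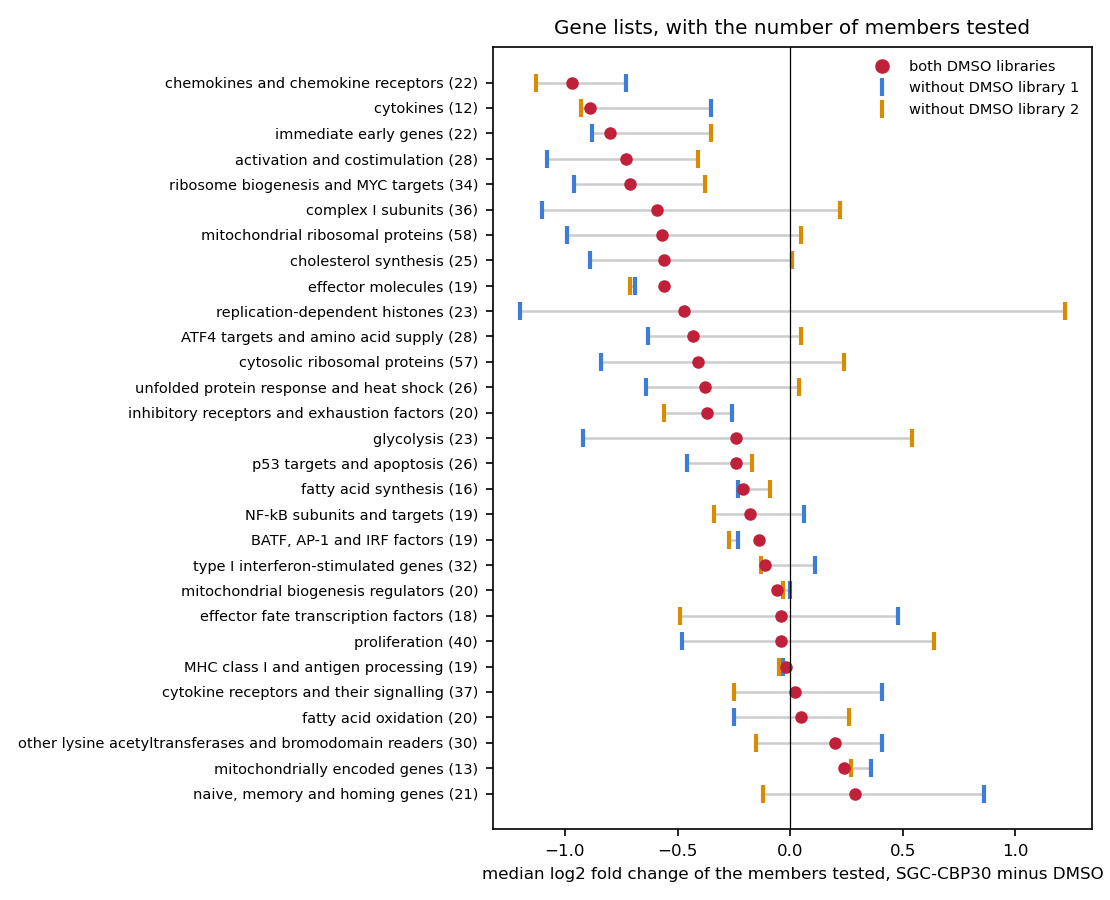
Median log2 fold change of each gene list with its number of members tested, with both DMSO libraries (red points) and without DMSO library 1 or 2 (blue and orange ticks). Chemokines and chemokine receptors, effector molecules, immediate early genes, activation genes and ribosome biogenesis stay below 0 under either tick, while complex I subunits, ribosomal proteins, glycolysis, proliferation and histone genes lie on opposite sides of 0.

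Fewer genes stood higher than lower under SGC-CBP30 at an unadjusted p under 0.05. Ifngr2, the signalling chain of the interferon gamma receptor, had 14.5 and 13.5 CPM in DMSO and 32.2 and 34.1 CPM in SGC-CBP30 (2.37-fold higher, log2 1.24 ± 0.24 SE, 95% interval 0.67 to 1.81). These were the highest values of the series, but EnPGC-1 came close at 22.2 and 32.0 CPM. Prrt2, a proline-rich transmembrane protein known from synapses, had 6.23 and 4.66 against 13.6 and 14.0 CPM. Its groups lay well apart, as did those of Ifngr2. The long noncoding RNA Neat1, the scaffold of nuclear paraspeckles, had 240 and 219 against 445 and 475 CPM, but its 342 and 480 CPM with EnPGC-1 reached as high. Tubb2b, a beta-tubulin, had 17.1 and 9.92 against 40.6 and 39.5 CPM. Bcl2l11, the death-inducing protein BIM, was 164 and 165 CPM in DMSO and 223 and 240 CPM in SGC-CBP30, above all 6 other libraries. The transcription factor Nfia had 4.68 and 1.68 against 9.35 and 8.53 CPM. Of the 12 higher genes with the smallest p, which also held Amt, Tctn1, Magi3, Lztfl1, Tnfrsf23, Zfp41, Mttp and Usp49, 9 had SGC-CBP30 values above all 6 other libraries.

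The genes of the inhibitor's targets had fold changes above 0 with wide intervals. Crebbp had 142 and 38.6 CPM in DMSO and 156 and 112 CPM in SGC-CBP30, and Ep300 had 211 and 51.2 against 205 and 167 CPM. The DMSO libraries differed more from each other than the mean of DMSO did from the mean of SGC-CBP30. The log2 fold changes of 0.57 and 0.51 had 95% intervals of -1.0 to 2.14 and -1.17 to 2.19. The 30 other acetyltransferases and bromodomain proteins tested had a median of 0.20, with 5 higher and 2 lower without overlap (all genes: 16.2% higher and 14.5% lower). Of them, 0 had an unadjusted p under 0.05 in edgeR and 0 were called by DESeq2.

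Markers of several other cell types were lower in SGC-CBP30 too. B cell markers had a median log2 fold change of -2.0 over 18 members (-0.96 without DMSO library 1 and -2.46 without DMSO library 2), 11 lower and 1 higher without overlap, although the summed level, most of it Ighm, was 1083 and 698 CPM in DMSO and 909 and 826 CPM in SGC-CBP30. Cd22, an inhibitory receptor of B cells, had 8.04 and 4.46 against 1.27 and 0.709 CPM, Pax5 had 5.25 and 1.42 against 0.976 and 0.410 CPM, and Cd74, the invariant chain of MHC class II that B cells and dendritic cells make in large amounts, had 69.3 and 68.6 against 28.7 and 23.2 CPM. Myeloid markers had a median of -1.57 over 15 tested of 21 (-0.14 without DMSO library 1 and -2.33 without DMSO library 2), with a summed level of 32.3 and 18.4 CPM in DMSO and 14.6 and 14.4 CPM in SGC-CBP30, and the dendritic cell markers Cd209a, Xcr1 and Clec9a had 0 counts in these 4 libraries. NK cell markers had a median of -0.70 over 11 tested of 12 (-0.67 with genes at 0 set to the floor), with 6 lower and 0 higher without overlap and sums of 354 and 363 against 197 and 229 CPM, and Klra8 and Klra4 had 0 counts. Several NK markers, such as Klrk1 (NKG2D) at 64.3 and 118 against 25.7 and 35.5 CPM and Eomes, are also made by activated CD8+ T cells. Erythroid and platelet markers had a median of -1.60 over 10 tested (-0.57 without DMSO library 1 and -1.27 without DMSO library 2), with sums of 47.8 and 16.6 against 26.0 and 9.48 CPM. Stromal and endothelial markers went the other way, with a median of 0.97 over 5 tested of 14. Their median was 0.90 without DMSO library 1 and 0.36 without DMSO library 2. Their sums were 198 and 120 against 225 and 224 CPM. CD8 T cell markers had a median of -0.24 over 15 members and sums of 7031 and 6694 against 6424 and 5670 CPM. The part of other cells in the lower values of Ccr2, Itgax (7.11 and 3.97 against 0.699 and 0.933 CPM), Cd74 or the NK-shared effector genes was not tested.

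Above the floor of 3 counts per library in DMSO, 47 genes had counts in both DMSO libraries and 0 in both SGC-CBP30 libraries. The myeloid markers Cd14 (6 and 41 counts in DMSO) and Adgre1 (16 and 22 counts) and the immunoglobulin light chain gene Iglv1 (25 and 22 counts) were among them. Pik3r6, a regulatory subunit of PI3-kinase gamma, had 26 and 28 counts in DMSO and 0 in both SGC-CBP30 libraries, which is at least 10.5-fold lower against a floor of 3 counts per library. Anxa3, an annexin, had 19 and 33 counts against 0, at least 9.93-fold lower. In the other direction, 62 genes had counts in both SGC-CBP30 libraries and 0 in both DMSO libraries. Among these the kinase gene Stk36 had 0 counts in DMSO and 32 and 33 counts in SGC-CBP30, at least 9.22-fold higher. These floors cover counting error only, and not the spread between libraries.

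Against the other compounds, which were tested in the same fit, edgeR called 0 genes for SGC-CBP30 against EnPGC-1 (percent called 0) and 0 against Ctrl PIP (percent called 0). At an unadjusted p under 0.05 there were 184 genes lower (1.10%) and 156 higher (0.931%) against EnPGC-1, and 429 lower (2.56%) and 239 higher (1.43%) against Ctrl PIP. DESeq2 called 8 lower and 1 higher against EnPGC-1 and 34 lower and 8 higher against Ctrl PIP. The doses are not in the labels, so these are comparisons of the libraries only. For several genes low under SGC-CBP30 the EnPGC-1 libraries lay between SGC-CBP30 and DMSO: Gzmb had 79.7 and 83.4 CPM with EnPGC-1, and Myc 97.8 and 85.9 CPM. Batf3, at 0.267 and 0.631 CPM with EnPGC-1, overlapped the SGC-CBP30 libraries. Xcl1 did not follow this order, at 17.8 and 21.3 CPM with EnPGC-1 and 21.5 and 15.2 CPM with Ctrl PIP, against 5.06 and 5.69 CPM with SGC-CBP30. Some lists that were low against DMSO had a median log2 fold change near 0 against EnPGC-1. It was 0.03 for ribosome biogenesis and MYC targets, -0.09 for activation and costimulation and 0.02 for cholesterol synthesis. Effector molecules, at -0.46, and chemokines and their receptors, at -0.62, were lower with SGC-CBP30 than with EnPGC-1 too.

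The Ctrl PIP libraries lay closer together than the DMSO libraries, at 47.51 and 22.39 on the first principal component, and the common coefficient of variation was 0.159 over SGC-CBP30 and Ctrl PIP against 0.424 over SGC-CBP30 and DMSO. In an edgeR fit of the 4 libraries of SGC-CBP30 and Ctrl PIP alone, chosen after the data were seen and with few residual degrees of freedom, 1332 genes were lower (8.51%) and 1138 higher (7.27%) at an adjusted p under 0.05. With offsets for transcript length and GC content, whose trends ran in opposite directions in these groups (rho -0.526 and -0.203 in Ctrl PIP), 943 genes were lower (6.45%) and 661 higher (4.52%). In that fit of 4 libraries, 27 of the 34 genes of ribosome biogenesis and MYC targets fell and 0 rose, and with the offsets 30 fell. Of the activation genes 11 of 28 fell and 0 rose (10 with the offsets), and of the chemokines and receptors 11 of 22 fell and 2 rose (7 and 2 with the offsets). Of the effector molecules 8 of 19 fell and 1 rose (3 and 1 with the offsets). The adjusted p of the edgeR fit of 4 libraries was 0.00493 for Gzmb, 0.0120 for Myc and 0.0113 for Batf3 and Xcl1. These libraries share the SGC-CBP30 replicates with the comparison against DMSO, so they do not repeat that treatment.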

How the data were processed

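RNA was measured by RNA-seq in 8 libraries of activated mouse CD8+ T cells, 2 per group, prepared with a TruSeq Stranded kit per the labels' protocols. The authors deposited a table of gene counts (45777 genes) and a table of log2-scale rlog values, whose header stands 1 column off its values. HISAT2, StringTie, DESeq2 and mm10 appear in the submitters' processing notes without version or purpose. The counting program and its strand setting count as not given in the sources used here. Values of near-identical genes (globins, histones, the Klra family, Ly6c1 with Ly6c2) are uncertain. All columns belonged to the 8 samples, and 99.8% of gene IDs matched RefSeq GRCm38.p6.

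From the counts, edgeR 4.0.16 (R 4.3.3, TMM, filterByExpr, robust quasi-likelihood fit on all 8 libraries with 4 residual degrees of freedom, two-sided, Benjamini-Hochberg over all genes, threshold 0.05) gave the main results. The test was also run on simulated counts. These held no trend with transcript length like that of the DMSO libraries, so they do not check the test under it. Alternatives used DESeq2 1.42.0, limma 3.58.1, smooth offsets from mgcv 1.9.3 for transcript length and GC content (available for 92.5% of genes), the rlog values, other filters, a replicate block and each replicate left out. Depth ranged from 38890043 to 55491261 counts.

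Genes were named from a fixed set, by smallest p (12 per direction, reaching 5 CPM in either group, with no overlap of the groups), by the widest gap to the other 6 libraries (6 per direction), and as members of the 37 lists (at most 4 per list by smallest p). Tnfrsf4, Tnfrsf9, Ccl3, Cxcr3, Ccr9, Gzma, Gzmm, Nop56, Itgax, Pax5, Klrk1, Pik3r6, Anxa3, Stk36, Cd14, Adgre1, Iglv1 and other list members outside this rule were chosen after their values were seen. The comparison, lists and motifs were chosen with earlier results of these data known. Promoter sequences are from RefSeq. A few genes that the naming rule picks are not reported here.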

Additional observations from a re-analysis of the deposited data

How the results depend on the processing

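The count of genes called by edgeR for SGC-CBP30 against DMSO was 0 in each direction under every alternative run except DESeq2 (11 higher, 58 lower). Genes at an unadjusted p under 0.05 numbered 84 higher and 348 lower with limma-voom, 381 higher and 733 lower with DESeq2, and 114 higher and 257 lower with the 4 libraries alone; leaving out each replicate in turn gave 51 to 2196 higher and 168 to 2041 lower, with both largest counts when DMSO replicate 1 was left out, and the cause was not tested. Against EnPGC-1 DESeq2 called 1 higher and 8 lower, and against Ctrl PIP 8 and 34. Chosen after seeing the data, limma-voom called 386 higher and 627 lower against Ctrl PIP, the fit of 4 libraries 1138 and 1332, and that fit with offsets 661 and 943. Same-numbered libraries deviated with correlations of 0.666 (DMSO with EnPGC-1), 0.231 (EnPGC-1 with SGC-CBP30), 0.227 (DMSO with SGC-CBP30), -0.039 (Ctrl PIP with SGC-CBP30), -0.226 (EnPGC-1 with Ctrl PIP) and -0.252 (DMSO with Ctrl PIP), not all above 0 and with no shared source in the labels, so the numbers were not taken to pair samples; the replicate block gave 0 called in each direction and, at an unadjusted p under 0.05, 237 and 483 (317 and 592 with the offsets, added after seeing the data).

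Leaving out each replicate in turn turned the sign of these log2 fold changes, none of which passed the test: Crebbp (-0.08 to 1.80), Ep300 (-0.18 to 1.86), Tcf7 (-0.03 to 0.86), Pdcd1 (-0.36 to 0.50), Ppargc1a (-6.03 to 3.62), Cd8a (-0.27 to 0.13), Cd4 (-0.90 to 0.74), Gzma (-0.04 to 0.26) and Ighm (-0.26 to 0.37). Depth limits genes of few counts, where 3 counts per library was the floor.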

Other observations

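The p53 target and apoptosis list had 13 of 26 members lower and 3 higher without overlap (all genes: 14.5% lower and 16.2% higher). Its median log2 fold change was -0.24 against DMSO and -0.02 against Ctrl PIP. Cdkn1a, the cell cycle inhibitor p21, had 11.6 and 21.8 CPM in DMSO and 4.88 and 3.86 CPM in SGC-CBP30. Type I interferon-stimulated genes had a median log2 fold change of -0.11 over 32 members, with 3 lower and 1 higher without overlap and 0 at an unadjusted p under 0.05 in edgeR and 0 called by DESeq2. The 13 mitochondrially encoded genes had a median of 0.24.

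Evi2b, a surface protein of blood cells, had 70.4 and 102 CPM in DMSO, 11.0 and 12.8 CPM in SGC-CBP30, 135 and 13.6 CPM in EnPGC-1 and 23.3 and 75.7 CPM in Ctrl PIP.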
